A study of Mus musculus with 4 samples.

Results

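Transcripts that mark neurons were followed in RNA from microglia, the resident macrophages of the brain. The set held 10 genes, Snap25, Syt1, Stmn2, Stmn3, Tubb3, Meg3, Nefl, Nefm, Dcx and Map2, of 20308 genes in the deposited tables. They were taken by gene symbol, and each library's raw counts entered once, as CPM, the count scaled by the library total to a common depth. The isolate came from mice at postnatal day 11. It gave 2 libraries labelled Pd1cKO-Cx3, replicates 2 and 3, a conditional knockout of Pd1, which encodes the inhibitory receptor PD-1. The other 2 libraries, replicates 1 and 2, were Pd1fl/fl controls, in which that gene is flanked by recombination sites. Below they are called cKO-labelled libraries 2 and 3 and control libraries 1 and 2. The labels neither spell out the driver that "Cx3" stands for nor say whether the controls carried it, and they do not say how the cells were isolated or whether animals were pooled. The labels do not say that replicates were separate animals, so p-values measure the spread between these samples, which may in part be technical.

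Neurons send signals through vesicles that fuse at the synapse, a step carried out by SNARE proteins such as SNAP-25 and triggered by the calcium sensor synaptotagmin-1. Their long processes are held by microtubules and neurofilaments, whose subunits and partners (class III beta-tubulin, stathmins, MAP2, doublecortin and the neurofilament chains) are standard neuronal markers. Microglia live among neurites and synapses and engulf parts of them during development. In bulk RNA, fewer cells of a type and less RNA per cell cannot be told apart.

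Depth was 14258420 and 15486984 counts in cKO-labelled libraries 2 and 3 and 15908954 and 14854625 counts in control libraries 1 and 2. In counts over the whole gene, the targeted gene was higher, not lower, under the cKO label. Pdcd1, which encodes PD-1, had 179 and 154 counts in the cKO-labelled libraries, against 0 and 43 counts in the controls. Its log2 fold change was 2.95 ± 1.48 (SE, edgeR adjusted p = 0.695). Reads by exon were not examined, so loss of the flanked stretch was not tested. The X-linked Xist had 13374 counts in control library 1 and 0 in the other 3, and the Y-linked Ddx3y had 0 counts in control library 1 and 1891 to 2064 in the others. With these values the 2 control libraries cannot both come from 1 and the same animal. By these genes control library 1 read as female and the other 3 as male, so sex was uneven between the groups. Sex was not a term in the edgeR fit, and its part in the values was not tested. The isolate matched its label, since a list of 10 microglial markers summed to 61353 and 59355 CPM in the cKO-labelled libraries and 75515 and 73000.5 CPM in the controls. This list was not equal between the labels. Of the 10 markers edgeR called 2, both lower under the cKO label, against 0.0397% of all genes tested. In 5 of the 10 both cKO-labelled libraries lay below both controls, against 18.8% of all genes tested. The cKO-labelled library 2 had counts for 18431 genes, the most of the 4 libraries, against 16763 to 17400 in the others. The mitochondrial share was 1.48% and 1.6% in the cKO-labelled libraries and 1.23% and 1.02% in the controls.

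The 10 neuronal genes were a trace in every library, and 1 library held more of them than the remaining 3. Together they summed to 75.1 CPM in cKO-labelled library 2 and 44.6 CPM in cKO-labelled library 3, against 45.8 and 46.2 CPM in control libraries 1 and 2. The exact 95% binomial interval ran from 70.7 to 79.8 CPM in cKO-labelled library 2. The intervals of the other 3 libraries lay between 41.3 and 49.8 CPM and overlapped each other. These intervals, and the floors given below for counts of 0, cover counting error only, since reads without molecular identifiers are not independent molecules. The group means were 59.8 ± 21.6 CPM in the cKO-labelled libraries and 46.0 ± 0.253 CPM in the controls (SD, n = 2 each), a ratio of 1.301. The groups overlapped, as cKO-labelled library 3 lay below both controls. On the log2 scale the ratio was 0.38, and it was -0.046 without cKO-labelled library 2, so that library decided the direction. In counts, the 10 genes held 1071 and 690 reads in the cKO-labelled libraries and 729 and 686 reads in the controls, between 0.00446% and 0.00751% of a library.

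**Figure D1:**
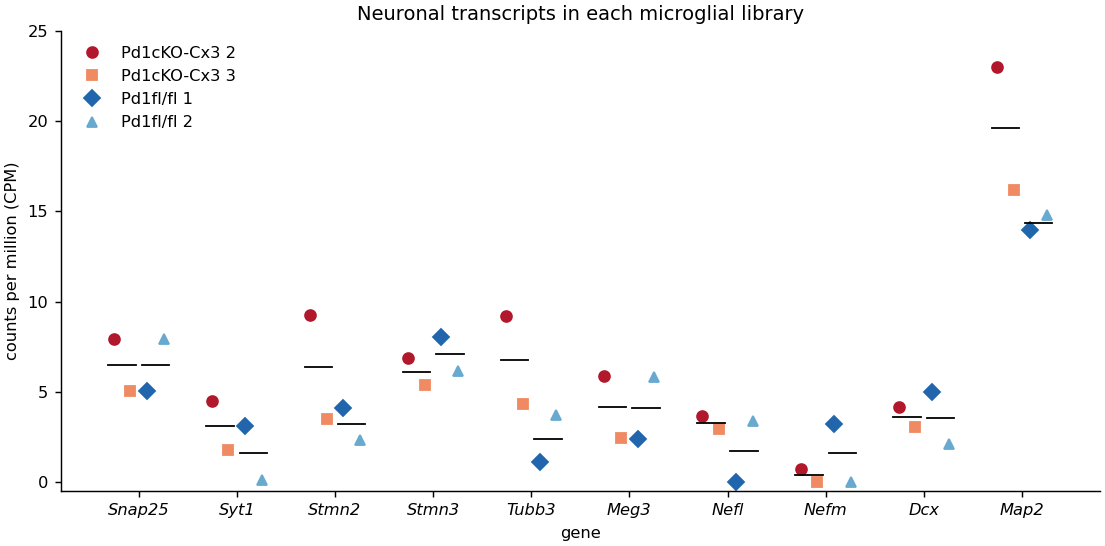
Level of each neuronal transcript (CPM, vertical axis) in the 4 libraries, with points for single libraries and black lines for group means (n = 2). Map2 is the most abundant in counts, at 13.95 to 23.0 CPM, and cKO-labelled library 2 is the highest library for 6 of the 10 genes.

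Markers of other cell types moved with cKO-labelled library 2 in part. A list of 10 astrocyte markers summed to 582 and 358 CPM in cKO-labelled libraries 2 and 3 and 507 and 431 CPM in control libraries 1 and 2. A list of 11 oligodendrocyte lineage markers, led by the myelin gene Mbp, summed to 1344 and 505 CPM in the cKO-labelled libraries and 827 and 423 CPM in the controls. Both lists were highest in cKO-labelled library 2, as the neuronal genes were, and both were next highest in control library 1, where the neuronal genes were not raised. The endothelial list summed to 157 and 117 CPM, against 104 and 73.6 CPM in the controls. The list of mural cells and fibroblasts summed to 185 and 183 CPM, against 82.3 and 48.1 CPM in the controls. The border-associated macrophage list summed to 663 and 638 CPM, against 428 and 516 CPM in the controls. No gene of these lists was at 0 in all 4 libraries, and the part of any of them in the neuronal values was not tested.

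**Figure D2:**
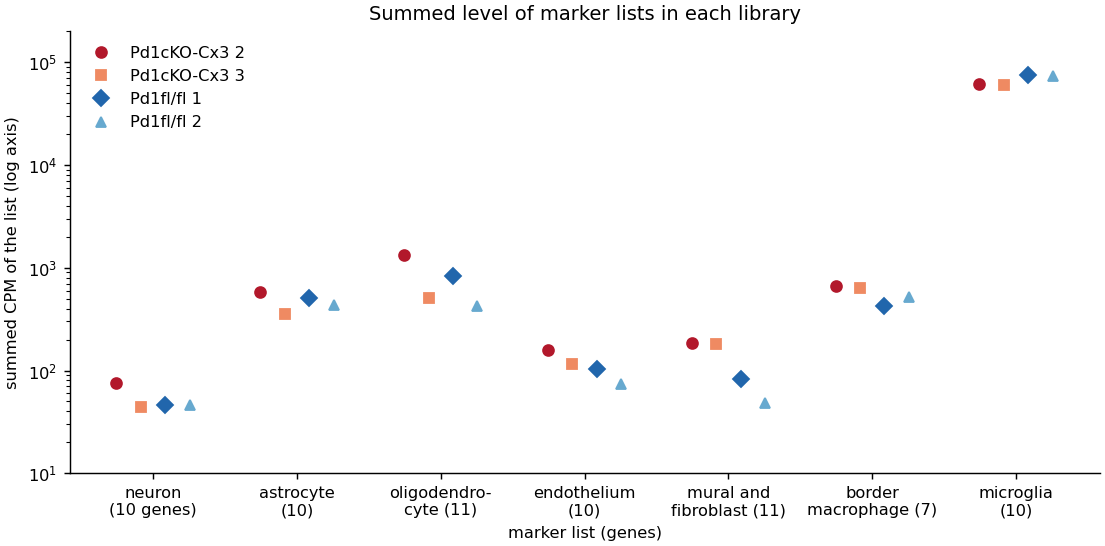
Summed CPM of 7 marker lists in each library, on a log axis, with the number of genes in brackets. The neuronal genes lie at 44.6 to 75.1 CPM, below the other 6 lists in every library.

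Between the genotype labels, 0 of the 10 genes passed edgeR's quasi-likelihood test over all genes, with adjusted p from 0.736 to 0.997. Over all 15097 genes tested, 6 passed (0.0397%), a share at which a count of 0 among 10 is near the background. At an unadjusted p under 0.05 the count was 0 as well, where 8.09% of all genes tested reached it. DESeq2 called 0 of the 10 and 1.54% of all genes. All 10 passed the filter on low counts. The median log2 fold change (cKO-labelled over control) was 0.23 over the 10 genes and 0.0080 over all genes tested. It was -0.050 without cKO-labelled library 2. In 2 of the 10 genes both cKO-labelled libraries lay above both controls, as in 21.3% of all genes tested. In 0 of the 10 they lay below both, against 18.8% of all genes tested.

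**Figure D3:**
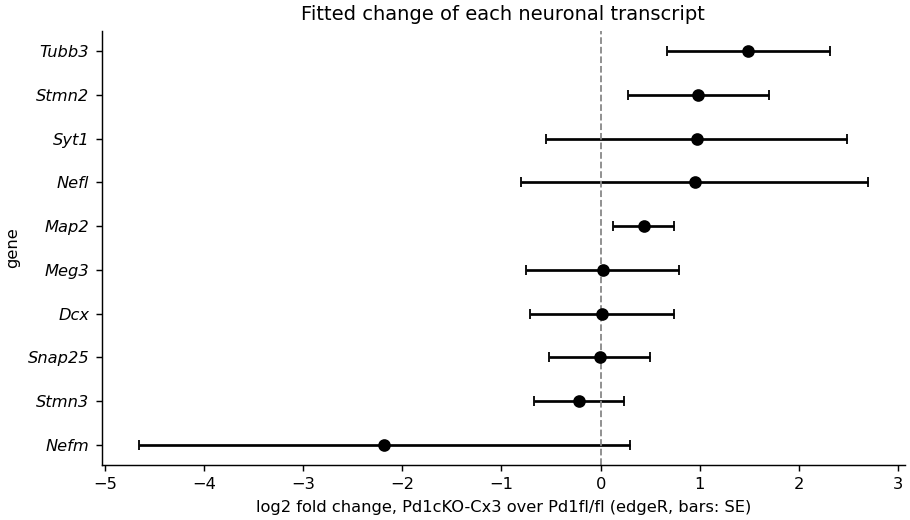
Fitted log2 fold change of each gene, cKO-labelled over control, with bars of 1 SE and the median of all genes tested as a dashed line. Tubb3 has the highest value (1.49) and Nefm the lowest (-2.18, with an SE of 2.48).

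Tubb3 and Map2 were the genes whose groups did not overlap. Tubb3 encodes class III beta-tubulin, a tubulin typical of neurons (ENSMUSG00000062380, chromosome 8, 123411424 to 123422015, plus strand, GRCm38). It had 9.19 and 4.33 CPM in cKO-labelled libraries 2 and 3, against 1.07 and 3.70 CPM in control libraries 1 and 2. Control library 1 was low with 17 counts, and cKO-labelled library 3 lay close to control library 2, with 67 and 55 counts. The means were 6.76 ± 3.44 CPM and 2.39 ± 1.86 CPM (SD, n = 2 each). With a value of 1.49 ± 0.82 (SE), the log2 fold change missed the threshold in edgeR (adjusted p = 0.736). It ranged from 0.85 without cKO-labelled library 2 to 2.65 without control library 2. Reads of beta-tubulin genes can be split between near-identical copies, so the single values of Tubb3 are uncertain.

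Map2, the microtubule-associated protein of dendrites, carried the largest share of the neuronal counts in every library (ENSMUSG00000015222, chromosome 1, 66175273 to 66442583, plus strand). It had 23.0 and 16.2 CPM in the cKO-labelled libraries, against 13.95 and 14.8 CPM in the controls. Both cKO-labelled libraries were above both controls, with cKO-labelled library 3 the nearer. The means were 19.6 ± 4.81 and 14.4 ± 0.605 CPM (SD, n = 2 each), and the log2 fold change was 0.44 ± 0.31 (SE, edgeR adjusted p = 0.806). It was 0.17 without cKO-labelled library 2 and 0.68 without cKO-labelled library 3. An antisense gene, Gm10558, shares 124 of the 16449 exonic bases of Map2, and no source used here says whether counting used strand.

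The promoter windows of these genes are shown because they were the members with separate groups. RefSeq (GRCm38.p6) gave 9 windows of 300 bases for 6 of the 10 genes (Map2, Stmn3, Tubb3, Syt1, Meg3 and Dcx), from 250 bases before to 50 bases after the start. RE1, the element bound by the repressor REST in many neuronal genes, has cores that read CAGCACC and GGACAGC. These letters were searched on both strands, and matches are in capitals. Both sequences run 5′ to 3′ on the plus strand, at chr8:123411303-123411602 for Tubb3 and chr1:66175079-66175378 for Map2.
Tubb3: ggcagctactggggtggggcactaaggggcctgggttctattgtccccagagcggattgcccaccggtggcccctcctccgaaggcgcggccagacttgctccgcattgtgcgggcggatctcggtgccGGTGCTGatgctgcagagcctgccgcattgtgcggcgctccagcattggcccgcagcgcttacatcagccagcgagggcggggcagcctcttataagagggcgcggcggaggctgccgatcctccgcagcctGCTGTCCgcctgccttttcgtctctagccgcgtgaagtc
Map2: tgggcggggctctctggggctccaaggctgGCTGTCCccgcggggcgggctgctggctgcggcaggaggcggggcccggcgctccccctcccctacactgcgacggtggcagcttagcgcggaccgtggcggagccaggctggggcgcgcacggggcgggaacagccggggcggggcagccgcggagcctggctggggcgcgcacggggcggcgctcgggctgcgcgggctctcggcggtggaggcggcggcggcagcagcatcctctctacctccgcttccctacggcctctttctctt
The Tubb3 window held a match to each core and the Map2 window a match to the second, all on the minus strand. The matches in the Tubb3 window were not next to each other, and a whole RE1 was not searched for. Of the 9 windows, 1 held CAGCACC and 2 held GGACAGC, against 7.14% and 6.56% of all 32851 windows. A match is a description of the letters only.

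Among the genes of the vesicle machinery, Snap25 had nearly the same mean in both groups. Snap25, whose protein drives vesicle fusion (chromosome 2, 136713453 to 136782428, plus strand), had 7.93 and 5.04 CPM in the cKO-labelled libraries, against 5.03 and 7.94 CPM in the controls. A high and a low library stood in each group, and the means were 6.48 ± 2.04 and 6.49 ± 2.06 CPM (SD, n = 2 each). The log2 fold change was -0.010 ± 0.51 (SE, edgeR adjusted p = 0.997). It was -0.37 without cKO-labelled library 2 and 0.36 without control library 2.

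Syt1, the calcium sensor of release (chromosome 10, 108497650 to 109010982, minus strand), was nearly missing from 1 control. It had 4.49 and 1.74 CPM in the cKO-labelled libraries, against 3.08 and 0.0673 CPM in the controls. The counts were 64 and 27 in the cKO-labelled libraries and 49 and 1 in the controls, so control library 1 lay between the cKO-labelled libraries. Its log2 difference was 0.97 ± 1.52 (SE), at an edgeR adjusted p of 0.944. It was 0.013 without control library 2 and 5.36 without control library 1.

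The stathmins, which bind free tubulin and are made in growing neurons, had different profiles. Stmn2 (chromosome 3, 8509360 to 8561606, plus strand) had 9.26 and 3.49 CPM in the cKO-labelled libraries, against 4.09 and 2.29 CPM in the controls. Its cKO-labelled library 2 was the highest and cKO-labelled library 3 lay between the controls. The fitted log2 difference was 0.99 ± 0.71 (SE), with an edgeR adjusted p of 0.810. The fold change was 0.12 without cKO-labelled library 2. Stmn3 (chromosome 2, 181306459 to 181314500, minus strand) had 6.87 and 5.36 CPM in the cKO-labelled libraries, against 8.05 and 6.13 CPM in the controls. Its CPM had the narrowest span of the set, 1.501-fold from the lowest to the highest library, and its log2 fold change was -0.22 ± 0.45 (SE, edgeR adjusted p = 0.964). That value was -0.41 without cKO-labelled library 2 and -0.014 without control library 1.

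Dcx, the doublecortin gene of migrating young neurons (X chromosome, 143855842 to 143933311, minus strand), had 4.14 and 3.03 CPM in the cKO-labelled libraries, against 4.97 and 2.09 CPM in the controls. The controls enclosed both cKO-labelled libraries, and the log2 fold change was 0.015 ± 0.73 (SE, edgeR adjusted p = 0.997), with -0.47 without control library 2 and 0.77 without control library 1. The highest value stood in control library 1, the library with Xist counts, and the part of that in this X-linked gene was not tested.

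Meg3, a long noncoding RNA of the imprinted Dlk1-Meg3 region (chromosome 12, 109541001 to 109571726, plus strand), split the libraries across the labels. It had 5.89 and 2.45 CPM in the cKO-labelled libraries, against 2.39 and 5.79 CPM in the controls. So cKO-labelled library 2 and control library 2 were high and the other 2 were low. The log2 fold change was 0.020 ± 0.77 (SE, edgeR adjusted p = 0.997), with -0.74 without cKO-labelled library 2 and 0.80 without control library 2. The noncoding Rian, from the same region, had 0.701 and 1.23 CPM in the cKO-labelled libraries, against 4.21 and 1.75 CPM in the controls, so it did not share the split.

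The neurofilament chains Nefl (light) and Nefm (medium) had counts in the same library in cKO-labelled library 2 only. Nefl had 52 and 45 counts in cKO-labelled libraries 2 and 3, against 0 and 50 counts in control libraries 1 and 2. Nefm had 10 and 0 counts in the cKO-labelled libraries, against 51 and 0 counts in the controls. The library without Nefl was thus the one with the most Nefm. Nefl had 3.65 and 2.91 CPM in the cKO-labelled libraries and 0 and 3.37 CPM in the controls, and Nefm had 0.701 and 0 CPM against 3.21 and 0 CPM. A count of 0 allows up to 0.189 CPM in control library 1, 0.202 CPM in control library 2 and 0.194 CPM in cKO-labelled library 3, from a floor of 3 counts. The log2 fold changes were 0.95 ± 1.75 for Nefl and -2.18 ± 2.48 for Nefm (SE, edgeR adjusted p = 0.957 and 0.908). Without control library 1 the value for Nefl was -0.051.

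Both genes lie on chromosome 14, on opposite strands, and their exons overlap. In GENCODE M21 (GRCm38), the first exon of Nefl runs from 68083863 to 68085009 on the plus strand. The last exon of a Nefm transcript runs from 68082590 to 68084970 on the minus strand. They share 1108 bases, which are 32.8% of the exonic bases of Nefl and 19.2% of those of Nefm. Without strand, reads from this stretch cannot be told apart. The end of the overlap is shown because it is where the shared sequence stops, at chr14:68084932-68085009, on the plus strand. The capitals mark the 39 bases that belong to exons of both genes, and the lower case letters belong to Nefl alone.
Nefl: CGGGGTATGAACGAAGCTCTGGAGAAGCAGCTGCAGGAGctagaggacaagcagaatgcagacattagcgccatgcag
Taken as a pair, the neurofilament genes had 62 and 45 counts in the cKO-labelled libraries, against 51 and 50 counts in the controls. The sum was 3.63 ± 1.02 CPM in the cKO-labelled libraries and 3.29 ± 0.113 CPM in the controls (SD, n = 2 each). It spanned 1.496-fold over the 4 libraries, while each gene alone had at least 1 library at 0. The part of the exon overlap in these counts was not tested. Leaving both genes out of the set gave a ratio of summed CPM between the groups of 1.32.

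**Figure D4:**
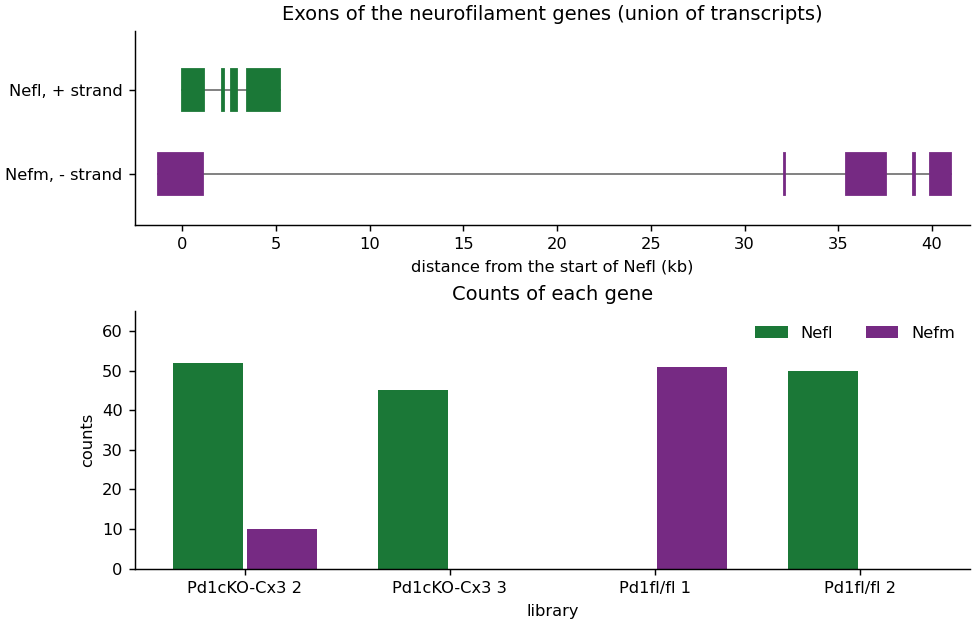
Upper panel, exons of Nefl and Nefm by distance from the start of Nefl (kb). Lower panel, counts of both genes in each library, where control library 1 has 0 for Nefl and 51 for Nefm and the other 3 libraries have 45 to 52 for Nefl.

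Such dropouts were not limited to the neuronal genes. Of 2017 genes whose highest count lay between 40 and 80, a range chosen after these values were seen, 662 (32.8%) had a library at 0 or 1 count. Of the 4 neuronal genes in that range (Syt1, Nefl, Nefm and Dcx), 3 had such a library.

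The make-up of the neuronal counts differed between libraries. Map2 held 30.6% and 36.4% of them in the cKO-labelled libraries and 30.5% and 32.1% in the controls. Tubb3 held 12.2% and 9.71%, against 2.33% and 8.02% in the controls. Stmn3 held 9.15% and 12%, against 17.6% and 13.3%, and Dcx 5.51% and 6.81%, against 10.8% and 4.52%. In 6 genes cKO-labelled library 2 was the highest, in 3 genes control library 1 and in 1 gene control library 2. Control library 1 was the lowest in 5 genes.

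**Figure D5:**
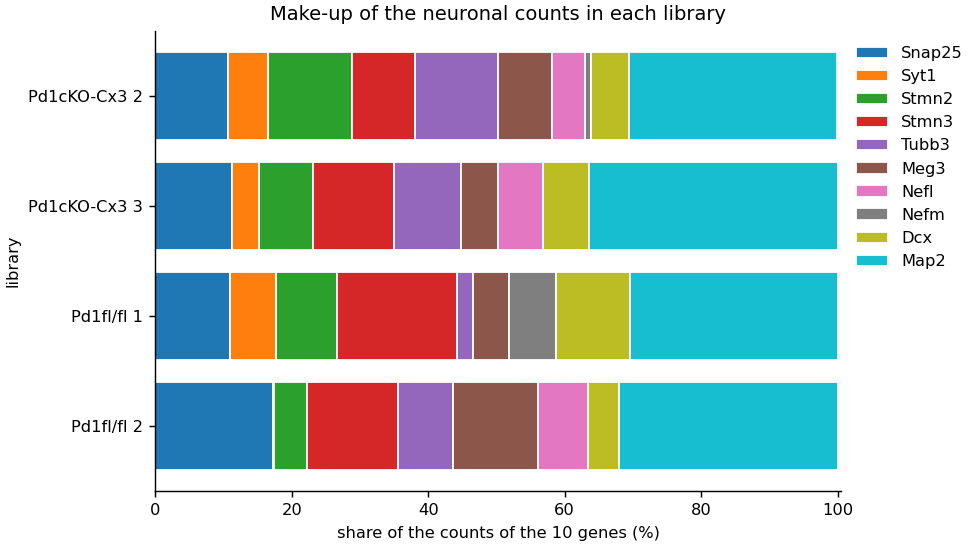
Share of the counts of the 10 genes (%, horizontal axis) taken by each gene in the 4 libraries, with 1 stacked bar for each library. Map2 takes 30.5% to 36.4%, and Tubb3 ranges from 2.33% in control library 1 to 12.2% in cKO-labelled library 2.

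Per length, the order of levels changed, since the exons of Meg3, Map2 and Dcx cover 18089, 16449 and 12647 bases in GENCODE M21, against 1136 for Stmn3. On the scale of CPM per kilobase of exon, Stmn3 had the highest mean, 5.81, with single libraries from 4.72 to 7.08. Tubb3 followed at 2.45 (0.572 to 4.92) and Map2 at 1.03 (0.848 to 1.40). Snap25 had 0.955, Stmn2 0.853 and Nefl 0.734 CPM per kilobase. Syt1 and Dcx had 0.281 each, Meg3 0.228 and Nefm 0.169 CPM per kilobase. The ranges of neighbours in this order overlapped across libraries, while Stmn3 lay above both Tubb3 and Map2 in every library. The microglial receptor gene Csf1r stood at 2881 on the same scale.

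Relatives of these genes had higher mean levels per length, by very different amounts, and the part of neurons in these levels was not tested. Tubb5, a beta-tubulin of dividing and many other cells, had a mean of 288 CPM per kilobase, where Tubb3 had 2.45. Snap23, a relative of Snap25, had 25.7, where Snap25 had 0.955. Stmn1 had 49.3, where Stmn2 had 0.853 and Stmn3 5.81, and Map4 had 16.5, where Map2 had 1.03. Syt11, another synaptotagmin, had 7.73, where Syt1 had 0.281. Vim, an intermediate filament gene of many non-neuronal cells, had 1.57, and Dclk1 and Dclk2, relatives of doublecortin, had 0.674 and 3.86. The other beta-tubulins Tubb2a, Tubb4b and Tubb6 had 23.4, 14.8 and 4.37. In cKO-labelled library 2, Tubb6 (4.52) lay below Tubb3 (4.92). Control library 1 had Dclk1 (0.267) below Dcx (0.393), and control library 2 had Vim (0.695) below Nefl (0.996). Of the 11 relatives, 0 passed edgeR over all genes, 1 had an unadjusted p under 0.05 and DESeq2 called 0. In 7 of them (63.6%) both cKO-labelled libraries lay above both controls, against 21.3% of all genes tested. Their log2 fold changes ran from 0.11 for Syt11 to 0.91 for Vim. Tubb5 had 927 and 1140 CPM in the cKO-labelled libraries, against 869 and 891 CPM in the controls. Its log2 difference was 0.22 ± 0.12 (SE), at an edgeR adjusted p of 0.721.

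Other genes of neuronal function were read from 8 lists by role, which hold 120 genes with the 10 above. Of these, 98 were in the tables and 82 passed the filter. Among the 72 tested genes beyond the 10, edgeR called 0 and DESeq2 called 0. In edgeR 2 of the 72 had an unadjusted p under 0.05, where 8.09% of all genes tested reached it. Their median log2 fold change was 0.084, with 39 positive values. In 6 of the 72 both cKO-labelled libraries lay above both controls, in 10 below, and in 56 the groups overlapped. Over all genes tested, 21.3% lay above and 18.8% below. The highest library was cKO-labelled library 2 in 22 of them and control library 1 in 27. Whether this differs from the 10 genes was not tested. The smallest adjusted p was 0.527, for Kif5c, a kinesin motor gene named after its values were seen. Kif5c had 12.1 and 15.8 CPM in the cKO-labelled libraries, against 5.66 and 3.64 CPM in the controls.

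By role, the presynaptic list summed to 289 and 274 CPM in the cKO-labelled libraries, against 322 and 298 CPM in the controls. Its median log2 fold change was -0.0045 over 15 tested genes, and 0 passed. Leaving out single libraries moved that median to -0.27 (without cKO-labelled library 2, 16 tested genes) and 0.074 (without control library 1, 17 tested genes). The list was led by Nsf, an ATPase of vesicle traffic in all cells (119 and 125 CPM in the cKO-labelled libraries, 128 and 115 CPM in the controls), and by Vamp2. Vamp2, a vesicle SNARE gene, had 62.4 and 53.3 CPM in the cKO-labelled libraries, against 77.7 and 84.9 CPM in the controls. The groups did not overlap, and the log2 difference was -0.50 ± 0.18 (SE), at an edgeR adjusted p of 0.559.

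The neuronal cytoskeleton list, which holds 7 of the 10 genes, was highest in cKO-labelled library 2 as well. It summed to 287 and 160 CPM in the cKO-labelled libraries, against 172 and 169 CPM in the controls. Its median was 0.44 over 21 tested genes, of which 0 passed, and it was -0.22 without cKO-labelled library 2. Map1b, a microtubule-associated protein gene of growing axons, had 76.4 and 28.0 CPM in the cKO-labelled libraries, against 30.1 and 38.1 CPM in the controls. Tubb4a, a beta-tubulin of neurons and oligodendrocytes, had 37.7 and 19.4 CPM in the cKO-labelled libraries, against 24.6 and 27.7 CPM in the controls. In both, cKO-labelled library 2 was the highest and cKO-labelled library 3 the lowest of the 4.

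The list of RNA-binding and transcription factors of neurons had a median of -0.40 over 12 tested genes, and 0 passed. The median was -0.010 without cKO-labelled library 2 (15 tested genes) and -0.063 without control library 2 (14 tested genes). Elavl4, a neuronal RNA-binding protein gene, had 25.3 and 32.2 CPM in the cKO-labelled libraries, against 28.8 and 24.7 CPM in the controls. Nova1, a neuronal splicing factor gene, had 10.2 and 21.2 CPM in the cKO-labelled libraries, against 21.1 and 21.4 CPM in the controls, so here cKO-labelled library 2 was the low one.

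Genes of glutamate signalling had a median of 0.13 over 10 tested genes, with 0 called. This turned to -0.20 without cKO-labelled library 2 and was 0.51 without control library 1, where 12 genes were tested. Camk2a, the alpha chain of the synaptic kinase CaMKII, had 70.4 and 35.6 CPM in the cKO-labelled libraries, against 40.9 and 41.0 CPM in the controls. Camk2b, its beta chain, had 22.4 and 1.61 CPM in the cKO-labelled libraries, against 31.2 and 22.8 CPM in the controls, where cKO-labelled library 3 stood apart. Genes of GABA signalling and interneurons had a median of -0.18 over 8 tested genes, with 0 called. This was -0.48 without control library 2 and turned to 0.24 without control library 1. Dlx1, an interneuron transcription factor gene, had 4.14 and 1.36 CPM in the cKO-labelled libraries, against 4.40 and 0.539 CPM in the controls.

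Ion channel and adhesion genes had a median of 0.26 over 12 tested genes, with 0 called. The median was -0.91 without cKO-labelled library 2 and 0.94 without control library 1, where 13 genes were tested. The list of cerebellar granule and Purkinje cells had 2 tested genes, with 0 called. Itpr1, a calcium channel gene of the endoplasmic reticulum, had 8.49 and 9.88 CPM in the cKO-labelled libraries, against 5.09 and 9.76 CPM in the controls. Car8, a carbonic anhydrase-related gene of Purkinje cells, had 2.81 and 4.65 CPM in the cKO-labelled libraries, against 3.33 and 0 CPM in the controls.

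The genes nearest in profile to the summed 10 genes were picked over the 4 libraries from 9492 genes with a mean of at least 5 CPM. Likeness was the root mean square difference between centred log2 profiles, with 0.5 CPM added to each of the single genes. The nearest were Pop5 (0.040), Fabp5 (0.049), Taf1 (0.054), Trim36 (0.055) and Senp8 (0.063), on the log2 scale. Trim36 had 57.4 and 30.8 CPM in the cKO-labelled libraries, against 34.3 and 35.0 CPM in the controls. Fabp5, a fatty acid binding protein gene, had 14.7 and 7.68 CPM in the cKO-labelled libraries, against 8.42 and 8.55 CPM in the controls. With 4 libraries such profiles are close to a single raised value, in cKO-labelled library 2.

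The authors compared libraries pair by pair, and marked genes with a p below 0.05 and a log2 ratio beyond 1 in either direction. These comparisons share libraries and have no replicates, so their p-values compare those libraries and not the genotypes. In the authors' deposited table of cKO-labelled library 2 against control library 1, 5 of 10 genes were marked, 4 higher and 1 lower, where 29.6% of all genes listed were marked. In the authors' deposited table of cKO-labelled library 2 against control library 2, 4 of 10 were marked, all higher, against 27.6% of all genes. In the authors' deposited table of cKO-labelled library 3 against control library 1, 3 of 10 were marked, 2 higher and 1 lower, against 33.2%. In the authors' deposited table of cKO-labelled library 3 against control library 2, 2 of 9 genes listed were marked, 1 higher and 1 lower, against 31.6%. For Tubb3 the log2 ratios in the authors' deposited tables were 3.10 and 1.31 for cKO-labelled library 2 against control libraries 1 and 2, and 2.02 and 0.22 for cKO-labelled library 3. For Meg3 they were 1.30 and 0.025, and 0.039 and -1.24, in the same authors' deposited tables, so the mark depended on the control. Snap25, Map2, Stmn3 and Dcx were marked in 0 of the authors' 4 deposited tables.

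The authors' annotation columns gave 8 of the 10 genes the cellular component term "neuron projection", held by 1.29% of the genes tested. The exceptions were Tubb3 and Meg3, of which Tubb3 had "microtubule", as did Dcx and Map2. Nefl and Nefm had "neurofilament", a term of 6 genes among those tested.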

How the data were processed

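RNA of 4 libraries of microglia was analysed, 2 per genotype label. Each of the 4 deposited tables sets 1 cKO-labelled library beside 1 control. Per the file headers the tables hold raw counts per Ensembl gene, normalized values, a fold (ratio), its log2 and p-values. By their values, the deposited normalized column is CPM, with a count of 0 entered as 0.5, and no source names the tool behind the authors' p-values. Per the submitters' processing notes HTSeq 0.6.0, TopHat2 2.0.12 and Bowtie2 2.2.3 were used, with no role stated. The notes name mm9, but 92.1% of gene positions equal those of GENCODE M21, so coordinates are read as GRCm38. A library's counts were the same in both of its tables (0 differences). A gene absent from both tables of a library had at most 4 counts there and was set to 0, which touched none of the 10 genes.

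The 10 genes and the lists were chosen with earlier results of these data known. The comparison of genotype labels used edgeR 4.0.16 under R 4.3.3 (TMM, filterByExpr, quasi-likelihood test, Benjamini-Hochberg adjustment over all 15097 genes tested, threshold 0.05). The fit was run on simulated counts in which 200 genes were changed and all genes had the same dispersion. That run does not give the power of the fit for the 10 genes. SE is the absolute fold change over the square root of F. CPM values use library totals. DESeq2 1.42.0, other factors and filters, and leaving out each library were alternatives. Genes outside the set were named by a rule: the 2 most abundant of each list, all relatives and the 5 nearest profiles. Some genes this rule picks are not reported here. Exon lengths are unions over GENCODE M21 transcripts. Intervals are exact (Clopper-Pearson, scipy 1.17.1).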

Additional observations from a re-analysis of the deposited data

How the results depend on the processing

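None of the 34 single genes followed, the 10 neuronal genes among them, passed the threshold in any of the alternatives run, at 0 of 330 values. The number of genes called over the whole table was 6, and it was 233 with DESeq2, 32 without a filter, 32 at 5 CPM in 2 libraries and 4 to 21 without a library. The median log2 fold change of the 10 genes was -0.0039 at 5 CPM in 2 libraries, where 4 of them were tested, and -0.050 to 0.60 without a library. Without Nefl and Nefm, a setting chosen after seeing the data, it was 0.23. The log2 ratio of summed CPM ranged from -0.046 (without cKO-labelled library 2) to 0.71 (without cKO-labelled library 3), and was 0.37 with TMM factors, 0.44 as a mean of log2 values and 0.35 without Map2, the last chosen after seeing the data.

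The sign of the fold change turned for 13 genes. Without a library the values ranged from -0.37 to 0.36 for Snap25, -0.74 to 0.80 for Meg3, -0.051 to 8.64 for Nefl and -0.47 to 0.77 for Dcx. They ranged from -0.079 to 0.074 for Nsf, -0.29 to 1.16 for Map1b, -0.44 to 0.53 for Tubb4a, -0.079 to 0.26 for Elavl4 and -0.21 to 0.78 for Camk2a. The ranges were -0.87 to 2.32 for Dlx1, -0.10 to 0.84 for Itpr1, -0.68 to 0.62 for Syt11 and -0.40 to 1.67 for Dclk1. Upper-quartile factors gave -0.0090 for Meg3 and -0.0032 for Dcx. For Nsf, library totals gave 0.0041 and no filter 0.00083. Values against a library at 0 counts, such as 8.64 for Nefl, are set by the prior count and are no bound. Of 90 list medians under an alternative, 11 in 5 lists moved beyond the spread between replicates, and the cause was not tested. The filter was run anew without a library, so these medians and those under other filters can cover unlike sets of genes. Without a library the medians ranged from -0.31 to -0.010 for RNA-binding and transcription factors (13 to 15 genes, against 12 with all libraries). Ion channels had -0.91 to 0.94. The Dlk1-Meg3 region had -0.77 to 0.17 (2 or 3 genes, against 2 genes and -0.80 with all libraries). Cerebellar genes (2 genes) had 0.47 to 4.34 and the relatives 0.24 to 0.37. At 5 CPM in 2 libraries the RNA-binding list had -0.10 (5 genes) and the Dlk1-Meg3 region 0.012 (Meg3 alone). Without a filter the Dlk1-Meg3 region had 0.026 (3 genes) and the cerebellar list 3.17 (4 genes). No paired analysis was possible because the groups share fewer than 2 replicate numbers. At 0 to 328 counts per gene, depth limits what can be seen in single libraries.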

Other observations

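Transcripts of other brain cells were also uneven between single libraries. Ttr, the transthyretin gene that choroid plexus makes in bulk, had 48.2 CPM in cKO-labelled library 3 and 0 in the other 3 libraries. For cKO-labelled library 2 that 0 was set because the gene was absent from its deposited tables, and it stands for at most 4 counts. Folr1, another choroid plexus gene, had 6.01 CPM in cKO-labelled library 3. In cKO-labelled library 2, Folr1 had 0.140 CPM, and it had 0 and 0.135 CPM in the controls. The list of 6 ependymal and choroid plexus genes summed to 0.982 and 57.4 CPM in the cKO-labelled libraries and 0 and 1.21 CPM in the controls. The summed neuronal genes stood at 44.6 CPM in cKO-labelled library 3, with an exact interval that overlapped those of both controls. Neural progenitor genes, of which 5 of 7 listed were in the tables, summed to 9.82 and 8.78 CPM in the cKO-labelled libraries and 33.9 and 26.7 CPM in the controls. Nes, the nestin gene, had 2.95 and 6.78 CPM in the cKO-labelled libraries, against 26.6 and 10.8 CPM in the controls (log2 fold change -1.95 ± 0.62, SE), and Hes5 had 3.65 and 0.969 CPM, against 4.59 and 11.04 CPM in the controls. Neither passed the edgeR test over all genes (adjusted p = 0.542 and 0.680). Blood genes summed to 50.1 and 29.4 CPM in the cKO-labelled libraries and 15.5 and 36.7 CPM in the controls. Immediate-early genes summed to 8684 and 8149 CPM in the cKO-labelled libraries and 13104 and 15000.4 CPM in the controls. In 8 of the 10 both cKO-labelled libraries lay below both controls, against 18.8% of all genes tested. Of the 10 immediate-early genes, 0 passed edgeR and 8 had an unadjusted p under 0.05, against 8.09% of all genes tested. DESeq2 called 6 of the 10, against 1.54% of all genes.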
